A study of Homo sapiens with 12 samples.

Results

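Red cell membrane and skeleton genes were followed in HEL cells in which JAK2 had been knocked down. The set was chosen by name and known function, not by its values, although earlier results of these data were known. It holds GYPB, GYPC, SLC4A1, EPB41, EPB42, ANK1, SPTB and RHAG. Of these 8 genes, 6 were measured, by 14 of the 22406 probe sets tested, among which 11940 genes were named. ANK1 had 5 probe sets, RHAG had 3, EPB41 and SPTB had 2 each, and SLC4A1 and EPB42 had 1 each. No probe set carried GYPB or GYPC as its only symbol in the annotation used, and these genes were not analysed here.

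The human red cell keeps its shape through a protein lattice beneath the lipid bilayer. Spectrin, of which SPTB encodes the beta chain, forms the strands of the lattice. Ankyrin, the product of ANK1, ties the strands to the anion exchanger encoded by SLC4A1, and the product of EPB42 binds this anchor. The product of EPB41 joins spectrin to actin at the nodes of the lattice and to glycophorin C, encoded by GYPC. RHAG encodes an ammonium transporter that the Rh blood group proteins need to reach the cell surface, and GYPB encodes a glycophorin that bears blood group antigens. Inherited loss of several of these proteins deforms red cells.

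HEL is an erythroleukaemia cell line, and all 12 samples carry the JAK2V617F allele, homozygous per the series description. JAK2 is the kinase that carries erythropoietin signals from the cell surface. Lentiviruses in a pLKO vector with puromycin selection delivered 1 of 2 hairpin RNAs against JAK2, Jak2-9 or Jak2-10, or 1 of 2 controls. The controls were a luciferase hairpin, Luc, and GFP, which the labels call both a vector and a hairpin control. Each of the 4 groups had 3 arrays of total RNA from bulk cells. The labels number these replicates without calling them separate cultures, so the p-values measure the spread between arrays, which may be technical. All groups come from 1 leukaemia line, and no untransduced cells were analysed here.

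The DNA before the start sites of EPB42 and RHAG is shown because both genes were bright on these arrays. EPB42 was also the only gene of the group whose Jak2-9 arrays all lay above the controls. Of all probe sets, 12.2% had their Jak2-9 arrays all above or all below the controls. The 250 bases before each start site are given 5′ to 3′ on the gene's strand, from RefSeq on GRCh38.p14. The EPB42 stretch is chr15:43221019-43221268 and the RHAG stretch is chr6:49636840-49637089, both on the minus strand. Capitals mark matches to AGATAA or TGATAA on either strand, letters that the erythroid factor GATA1 is known to bind.
EPB42: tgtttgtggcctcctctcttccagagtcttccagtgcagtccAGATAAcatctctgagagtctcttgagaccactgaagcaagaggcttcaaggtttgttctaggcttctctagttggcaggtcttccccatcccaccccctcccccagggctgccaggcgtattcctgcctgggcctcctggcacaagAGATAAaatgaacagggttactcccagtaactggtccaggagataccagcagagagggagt
RHAG: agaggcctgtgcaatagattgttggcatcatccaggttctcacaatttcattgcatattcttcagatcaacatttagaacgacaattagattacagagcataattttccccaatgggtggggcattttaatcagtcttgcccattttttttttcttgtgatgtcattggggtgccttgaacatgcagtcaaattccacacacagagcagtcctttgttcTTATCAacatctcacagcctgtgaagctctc
EPB42 had AGATAA on its own strand at positions -208 and -61, counted from the start site. RHAG had TGATAA on the opposite strand at position -31, where the gene's strand reads TTATCA. Among 35116 RefSeq windows of 300 bases, from 250 before to 50 after a start site, 16.3% held at least 1 such match. CACCC, letters known to be bound by KLF1, occurred at 2 places in the window of each gene, counting both strands, and in 59.9% of all windows. The table held windows for 6 of the 8 genes. AGATAA also occurred in the 2 GYPB windows, which overlap and share the same single site. It occurred as well in 1 of the 2 SPTB windows at position -42. The GYPC window and the 2 EPB41 windows held neither AGATAA nor TGATAA. SLC4A1 and ANK1 had no window among those kept, so neither was searched for these letters. These matches describe letters and say nothing of binding in HEL cells.

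Intensities ranged from 11.2 to 36233.5 over the 12 arrays, with array medians from 44.9 to 49.1, and levels are given below as log2 intensity. Arrays of the same group correlated at 0.985 to 0.997 over all probe sets. Jak2-9 replicate 1 stood apart from its group, since 38.5% of all probe sets lay there over 0.3 (log2) away from the average of its 2 fellow arrays. The same measure gave 5.92% to 21.2% on the other arrays. Of 11 measured erythroid markers, 7 lay over the 75th percentile of probe sets in controls, led by HBG2, a fetal globin chain, with a mean level of 14.74. The alpha globin chaperone AHSP was the only one under the median probe set. Monocyte and granulocyte markers were dim: 9 of 10 measured genes lay under the median probe set, and their summed linear intensity was 378 to 408 on control arrays and 389.8 to 489 on hairpin arrays. Megakaryocyte markers, led by ITGA2B, summed to 5194 to 5934.5 on control arrays and 5188 to 6974 on hairpin arrays. Lymphoid markers summed to 691 to 833 and to 737 to 896 on the same arrays. Among the markers, limma called HBB at 1 of its probe sets over both hairpins, and HBB, HBZ, CD9 and SELP, the last 2 from the megakaryocyte list, with Jak2-9, all higher, and 0 with Jak2-10. Of all probe sets, 3.14% were called over both hairpins, 4.27% with Jak2-9 and 1.37% with Jak2-10. Over both hairpins 7 of 21 erythroid and 7 of 27 megakaryocyte probe sets had an unadjusted p under 0.05. That cut was met by 16% of all probe sets. With Jak2-9 the counts were 10 and 9, against 22.2% of all, and with Jak2-10 3 and 1, against 7.1%. Of the 14 monocyte and granulocyte and the 9 lymphoid probe sets 0 were called. Under the same unadjusted cut over both hairpins were 2 and 0 of them. The part of these markers in the results below was not tested. In bulk RNA, fewer cells of a type and less RNA per cell cannot be told apart.

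JAK2, the target of both hairpins, was lower on every hairpin array. At its brighter probe set, 205842_s_at, JAK2 read 10.47, 10.40 and 10.68 with GFP and 10.47, 10.63 and 10.56 with Luc. It read 9.37, 9.89 and 10.09 with Jak2-9 and 10.06, 10.04 and 9.78 with Jak2-10. All 6 hairpin arrays lay below all 6 control arrays, and Jak2-9 replicate 1 was the lowest. The log2 fold change of both hairpin groups against both controls was -0.67 ± 0.11 (SE, limma adjusted p = 0.0026). An exact two-sided permutation test gave p = 0.00216, the smallest that 924 arrangements allow. JAK2 fell by 0.75 on the log2 scale with Jak2-9 (limma adjusted p = 0.00569). The difference with Jak2-10 was -0.58 and missed the 0.05 threshold (limma adjusted p = 0.0556), although its 3 arrays did not overlap the controls. Without Jak2-9 replicate 1, both hairpins passed, at -0.55 for Jak2-9 (limma adjusted p = 0.00927) and -0.58 for Jak2-10 (limma adjusted p = 0.00201). Without Jak2-9 replicate 3, Jak2-10 also passed (limma adjusted p = 0.0269). The dimmer probe set, 205841_at, gave -0.73 for both hairpins (limma adjusted p = 0.032). That call was kept in 11 of 24 alternatives and was lost without any 1 of the 3 GFP, 3 Luc or 3 Jak2-10 arrays.

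None of the 14 probe sets of the red cell membrane and skeleton genes passed the threshold in any of the 5 comparisons. With both hairpins against both controls, limma called 0 of 14, and 0 had an unadjusted p under 0.05. Among all probe sets 3.14% were called in that comparison, 141 higher and 563 lower, and 16% had an unadjusted p under 0.05. With Jak2-9 against both controls, 0 of 14 were called and 1, EPB42, had an unadjusted p under 0.05, where 4.27% of all probe sets were called and 22.2% had such an unadjusted p. With Jak2-10 against both controls, 0 of 14 were called and 0 had an unadjusted p under 0.05, where the shares of all probe sets were 1.37% and 7.1%. At these shares 14 probe sets would hold few calls in any case, so the counts are near the background and only the sizes and intervals describe the genes.

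The differences were small. With both hairpins against both controls the 14 log2 fold changes ran from -0.09 to 0.10, 6 above 0 and 8 below. Their median was -0.02, where the median of all probe sets was 0.03 and 60.4% of all probe sets lay above 0. All 14 intervals (95%, limma) lay within 0.5 of 0 on the log2 scale, and 13 lay within 0.4. The widest, from -0.48 to 0.44, belonged to EPB41 at 214530_x_at. The lowest adjusted p was 0.553 (limma). No probe set had all 6 hairpin arrays above or all 6 below the 6 control arrays, a separation that 3.16% of all probe sets showed.

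**Figure D1:**
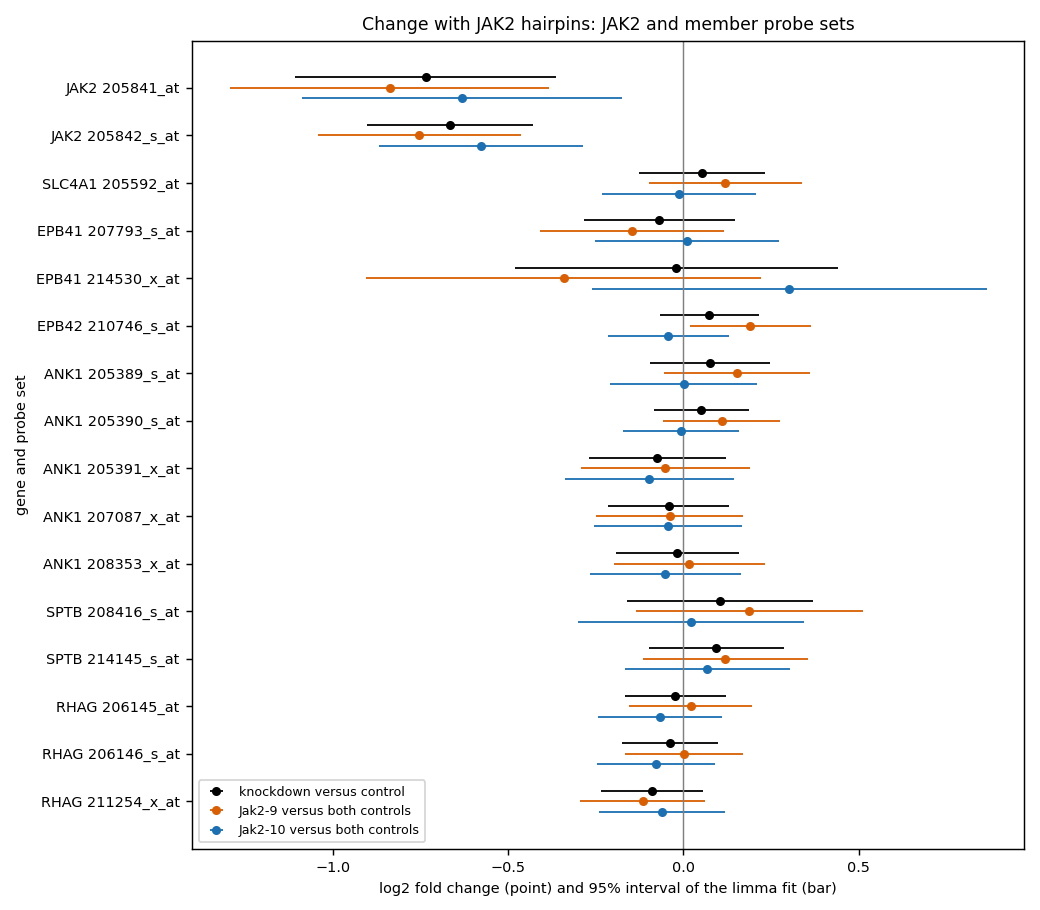
Log2 fold changes (points) and 95% intervals of the limma fit (bars) for the 2 JAK2 probe sets and the 14 probe sets of the red cell membrane and skeleton genes, with both hairpins and with each hairpin against both controls. JAK2 lies left of 0 in all 3 comparisons, while the points of the 14 others lie between -0.34 and 0.30, with the longest bars at EPB41 214530_x_at.

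Among the transmembrane proteins, RHAG was bright and differed between groups by less than its spread. RHAG 206145_at, brighter on control arrays than 98% of probe sets, read 12.30, 12.36 and 12.33 with GFP and 12.16, 12.31 and 12.25 with Luc. It read 12.35, 12.28 and 12.29 with Jak2-9 and 12.31, 12.29 and 12.05 with Jak2-10. The groups overlapped, and the lowest of the 12 values was Jak2-10 replicate 3. In linear intensity the mean was 4998 ± 250.3 (SD, n = 6) in controls and 4922 ± 351 (SD, n = 6) with a JAK2 hairpin. The log2 fold change was -0.02 ± 0.07 (SE, limma adjusted p = 0.889), with a 95% interval from -0.17 to 0.12.

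The other 2 RHAG probe sets overlapped between groups as well. RHAG 206146_s_at lay between 9.57 and 9.73 on the control arrays, between 9.60 and 9.64 with Jak2-9, and at 9.60, 9.63 and 9.39 with Jak2-10. As at 206145_at, Jak2-10 replicate 3 was the lowest array. RHAG 211254_x_at lay between 10.98 and 11.20 in controls, at 10.82, 10.95 and 11.09 with Jak2-9, and at 11.03, 10.99 and 11.01 with Jak2-10. Here Jak2-9 replicate 1 was the lowest array. Their log2 fold changes for both hairpins were -0.04 and -0.09 (limma adjusted p = 0.802 and 0.553). The suffix _x_at marks a probe set whose probes may also match other transcripts, and _s_at one that may match several transcripts of a gene or family.

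SLC4A1, the anion exchanger that anchors the lattice in the bilayer, was dim. SLC4A1 205592_at read 4.91, 4.80 and 4.89 with GFP and 4.87, 4.84 and 4.74 with Luc. It read 5.27, 4.78 and 4.84 with Jak2-9 and 4.83, 4.85 and 4.81 with Jak2-10. Only Jak2-9 replicate 1 left the narrow band that the other arrays share, and it lay above it. The log2 fold change for both hairpins was 0.05 ± 0.08 (SE, limma adjusted p = 0.792), and -0.02 (limma adjusted p = 0.909) without that array. The probe set lies inside the range of the monocyte and granulocyte markers, which ran from 4.04 to 6.59 in controls, so its value may be background, and a change in SLC4A1 below detection would not be seen.

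Of the anchor genes, EPB42 came closest to the threshold. EPB42 210746_s_at, brighter on control arrays than 94.7% of probe sets, read 11.06, 10.99 and 11.08 with GFP and 11.07, 11.01 and 11.09 with Luc. It read 11.41, 11.14 and 11.17 with Jak2-9 and 11.03, 11.001 and 10.99 with Jak2-10. All 3 Jak2-9 arrays lay above all 6 control arrays, a position (above or below) that 12.2% of all probe sets took, and the Jak2-10 arrays lay within the range of the controls. In linear intensity EPB42 averaged 2121 ± 61.1 (SD, n = 6) in controls, 2428 ± 255 (SD, n = 3) with Jak2-9 and 2058 ± 22.9 (SD, n = 3) with Jak2-10. The log2 difference with Jak2-9 was 0.19 ± 0.08 (SE, unadjusted p = 0.0329, limma adjusted p = 0.184), and without Jak2-9 replicate 1 it was 0.11 (limma adjusted p = 0.646). With Jak2-10 it was -0.04 ± 0.08 (SE, limma adjusted p = 0.997). Over both hairpins it was 0.07 ± 0.07 (SE, limma adjusted p = 0.616).

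ANK1 was measured by 5 probe sets, which ranked the arrays in different orders. ANK1 205390_s_at read 9.82, 9.80 and 9.80 with GFP, 9.78, 9.84 and 9.92 with Luc, 9.83, 9.98 and 9.99 with Jak2-9, and 9.91, 9.78 and 9.76 with Jak2-10. ANK1 205389_s_at lay between 7.51 and 7.80 on control arrays, at 7.72, 7.86 and 7.85 with Jak2-9, and at 7.85, 7.51 and 7.61 with Jak2-10. At both of these, Jak2-9 replicates 2 and 3 were the highest arrays and nearly equal.

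The 3 ANK1 probe sets with the suffix _x_at moved otherwise. ANK1 205391_x_at read 9.73, 9.60 and 10.16 on the 3 Jak2-9 arrays, against 9.78 to 9.97 on control arrays and 9.69 to 9.83 with Jak2-10. At 207087_x_at the Jak2-9 values were 9.42, 9.25 and 9.68 and at 208353_x_at they were 9.77, 9.60 and 10.07. At each of the 3, Jak2-9 replicate 2 was the lowest of the 12 arrays and Jak2-9 replicate 3 the highest, while the _s_at pair put these arrays side by side. Over both hairpins the ANK1 log2 fold changes were 0.08 and 0.05 at the _s_at pair and -0.07, -0.04 and -0.02 at the _x_at probe sets, with the lowest adjusted p at 0.675 (limma). The mean of the 5 differed by -0.0014 on the log2 scale (limma adjusted p = 0.995), with a 95% interval from -0.14 to 0.14.

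The skeleton genes gave the widest spread between arrays. SPTB, which encodes beta spectrin, read 7.16, 7.11 and 6.98 with GFP and 7.39, 6.94 and 7.35 with Luc at 208416_s_at. It read 7.81, 7.08 and 7.14 with Jak2-9 and 7.18, 7.30 and 7.04 with Jak2-10. Jak2-9 replicate 1 was the highest array, and the other Jak2-9 arrays lay among the controls. SPTB 214145_s_at was dimmer, within the range of the monocyte and granulocyte markers, at 4.71 to 5.07 on control arrays, 5.28, 5.01 and 4.80 with Jak2-9, and 4.95, 4.95 and 5.02 with Jak2-10. There too Jak2-9 replicate 1 was the highest. The log2 fold changes over both hairpins were 0.10 and 0.09 (limma adjusted p = 0.712 and 0.643), and without that array they were -0.01 and 0.03 (limma adjusted p = 0.972 and 0.911).

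EPB41, which joins spectrin to actin, turned on 1 array. EPB41 214530_x_at read 7.003, 7.10 and 7.38 with GFP and 7.33, 7.33 and 7.32 with Luc. It read 5.87, 7.36 and 7.47 with Jak2-9 and 7.57, 7.31 and 7.75 with Jak2-10. Jak2-9 replicate 1 differed by -1.55 (log2) from the mean of its fellow arrays, the farthest of any of the 14 probe sets on any array, and the other 11 arrays lay between 7.003 and 7.75. The log2 difference with Jak2-9 was -0.34 ± 0.26 (SE, limma adjusted p = 0.473) and became 0.17 (limma adjusted p = 0.601) without that array. With Jak2-10 it was 0.30 ± 0.26 (SE, limma adjusted p = 0.964, or 0.214 without Jak2-9 replicate 1). Over both hairpins it was -0.02 ± 0.21 (SE, limma adjusted p = 0.976), and 0.24 (limma adjusted p = 0.199) without that array. EPB41 207793_s_at, the only probe set of the 14 among the dimmest 30% of the table, lay between 4.23 and 4.99 on all arrays, with Jak2-9 replicate 1 as the lowest.

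**Figure D2:**
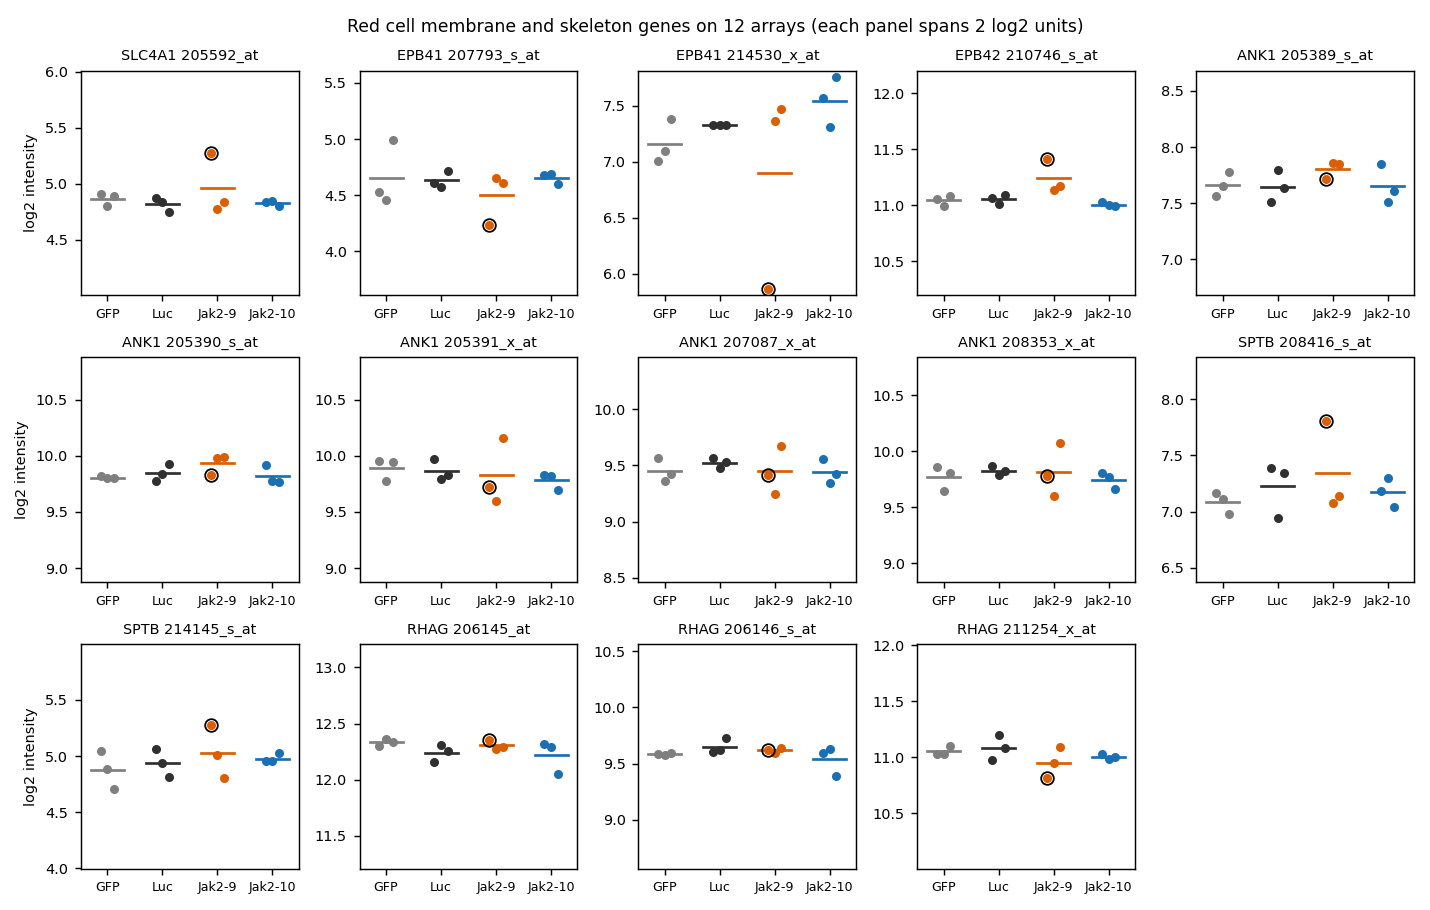
Log2 intensity of the 14 probe sets on the 12 arrays, 1 panel per probe set, each spanning 2 log2 units; points are arrays, lines are group means of 3 arrays, and a ring marks Jak2-9 replicate 1. In most panels the 4 groups overlap, the ringed array lies far below the rest at EPB41 214530_x_at (5.87) and above them at EPB42, SLC4A1 and both SPTB probe sets.

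The spread between Jak2-9 arrays was examined at the 14 probe sets. On Jak2-9 replicate 1, 5 of 14 probe sets lay over 0.3 (log2) away from the average of its fellow arrays, a share near the 38.5% of all probe sets given above: SLC4A1, both of EPB41 and both of SPTB. It read lower at EPB41 and higher at the other 3 probe sets. Jak2-9 replicates 2 and 3, whose fellow arrays include that array, had 4 and 6 of 14 over the limit, against 19% and 21.2% of all probe sets. On GFP replicate 3 there were 2 of 14, on Luc replicate 2 and on Jak2-10 replicates 2 and 3 there was 1 each, and on the other 5 arrays there were 0. JAK2 was also lowest on Jak2-9 replicate 1.

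**Figure D3:**
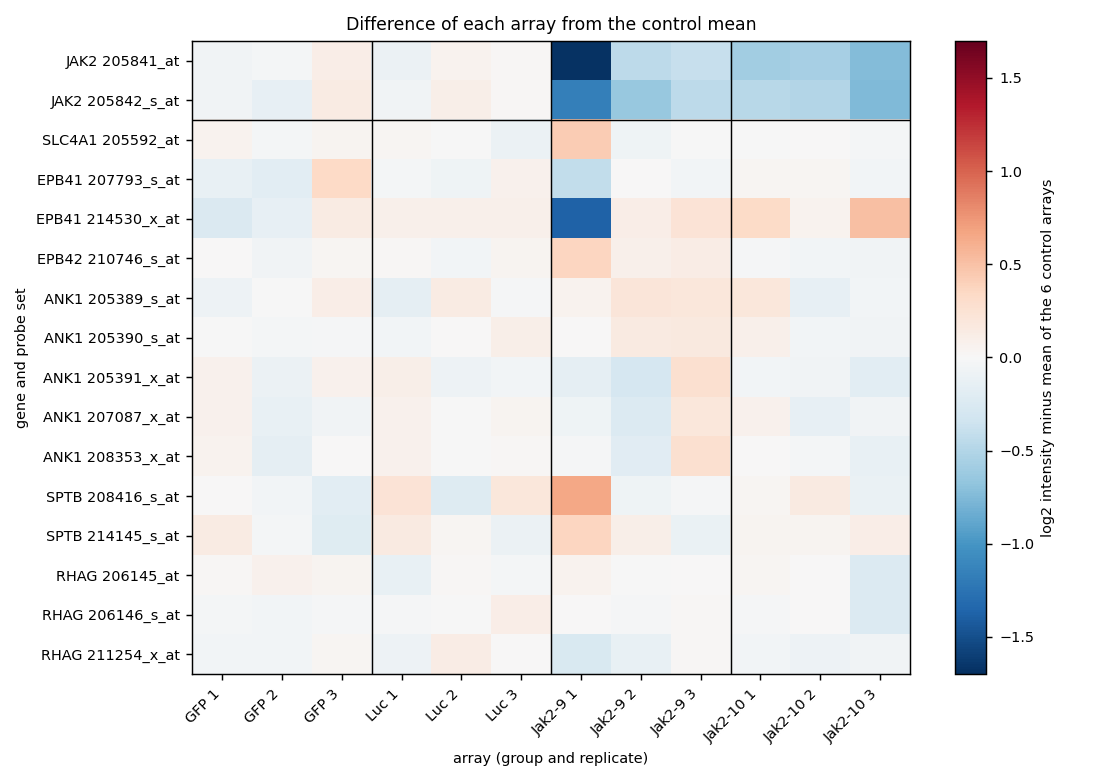
Heat map of log2 intensity minus the mean of the 6 control arrays, for JAK2 (the top 2 lines) and the 14 probe sets of the red cell membrane and skeleton genes, with 1 column per array; blue is lower and red is higher. The JAK2 lines are blue across the 6 hairpin columns, while among the 14 others the deepest colour is in the Jak2-9 replicate 1 column, at EPB41 214530_x_at.

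The direct comparison of the hairpins also gave no call. Jak2-10 minus Jak2-9 was tested at all 14 probe sets, and limma called 0 of them, with 1 under an unadjusted p of 0.05, where 0% of all probe sets were called and 8.56% had an unadjusted p under 0.05. That probe set was EPB42, at -0.23 ± 0.09 (SE, unadjusted p = 0.0249, limma adjusted p = 0.572), and -0.15 (limma adjusted p = 0.969) without Jak2-9 replicate 1. All 3 Jak2-10 arrays of EPB42 lay below all 3 Jak2-9 arrays, a separation (above or below) found at 10.9% of all probe sets. The largest difference in size was at EPB41 214530_x_at, 0.64 ± 0.30 (SE, limma adjusted p = 0.572), with a 95% interval from -0.01 to 1.29, and it was 0.13 (limma adjusted p = 0.969) without Jak2-9 replicate 1. Between the controls, Luc minus GFP, limma called 0 of 14 and 0% of all probe sets, with 0 of 14 and 2.5% under an unadjusted p of 0.05, and the 14 differences ran from -0.09 to 0.17. Against both controls, no probe set of the group had all 3 Jak2-10 arrays outside the controls, where 5.88% of all probe sets did.

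The log2 fold changes of each hairpin against the same control arrays can be set side by side. With Jak2-9 the 14 values ran from -0.34 to 0.19 with a median of 0.02, 9 above 0 and 5 below. With Jak2-10 they ran from -0.10 to 0.30 with a median of -0.03, 5 above 0 and 9 below. Among all probe sets 60.1% lay above 0 with Jak2-9 and 56.3% with Jak2-10. The lowest adjusted p was 0.184 with Jak2-9 and 0.964 with Jak2-10 (limma). At 95%, 12 of the 14 intervals lay within 0.5 of 0 with Jak2-9 and 13 with Jak2-10.

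Other genes of the red cell membrane, among them the adducins, the Rh and Kell blood group proteins, stomatin and the water channel AQP1, were measured for 36 of 44 listed genes by 77 probe sets. Over both hairpins 1 probe set rose past the threshold and 0 fell, where 3.14% of all probe sets were called. The median was 0.06, with 50 of 77 above 0, against 0.03 and 60.4% for all probe sets. The riser was BSG, which encodes basigin, a surface glycoprotein that carries the Ok blood group and escorts lactate transporters. BSG read 8.93, 9.14 and 9.16 with GFP, 9.00, 8.97 and 9.02 with Luc, 9.83, 9.50 and 9.51 with Jak2-9, and 9.47, 9.31 and 9.45 with Jak2-10. All 6 hairpin arrays lay above all 6 control arrays, a separation (above or below) that 3.16% of all probe sets showed. BSG rose 1.39-fold, by 0.48 ± 0.08 on the log2 scale (SE, limma adjusted p = 0.00216), and the call was kept in 24 of 25 alternatives, failing where a minimum fold of 1.2 was asked (limma adjusted p = 0.488).

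With single hairpins the same list gave few calls, where 4.27% of all probe sets were called with Jak2-9 and 1.37% with Jak2-10. BSG rose by 0.58 with Jak2-9 (limma adjusted p = 0.0028). With Jak2-10 its difference was 0.37 (limma adjusted p = 0.0868), which passed without Jak2-9 replicate 1 (limma adjusted p = 0.014). With Jak2-9 the list had 1 rise and 1 fall and a median of 0.07, and the fall was 1 of the 9 probe sets of CD44, the hyaluronan receptor that bears the Indian blood group. CD44 217523_at fell by 0.44 (limma adjusted p = 0.0273), and the call was lost in 6 of 23 alternatives, among them without Jak2-9 replicate 1, GFP replicate 3, Luc replicate 1 or Luc replicate 3 (limma adjusted p = 0.0925, 0.0572, 0.0536 and 0.0569). The level of CD44 217523_at is inside the range of the monocyte and granulocyte markers, so its value may be background. Other CD44 probe sets differed in sign, for example 204490_s_at at 0.42 (limma adjusted p = 0.0596). With Jak2-10 the list had 0 calls and a median of 0.04, and the lowest p besides BSG was at PIEZO1, a mechanically gated channel, at -0.37 (limma adjusted p = 0.201).

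Between the hairpins none of the 77 passed. The lowest p-values of Jak2-10 minus Jak2-9 belonged to CD44 204489_s_at at -0.38 and CD47 213055_at at 0.38 (limma adjusted p = 0.572 for both). CD47 encodes a surface signal against engulfment. Its other probe sets, 211075_s_at, 213856_at and 213857_s_at, gave -0.06, -0.06 and -0.10. CD47 213055_at was lowest on Jak2-9 replicate 1, at 5.56. Luc minus GFP had its lowest p-values at CD44 217523_at, 0.22, and AQP1, -0.20 (limma adjusted p = 1 for both).

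Relatives of the 8 genes that act outside the red cell were measured for 19 of 21 genes by 47 probe sets. Over both hairpins their median was 0.06 and 32 of the 47 lay above 0, as did 60.4% of all probe sets. The share of all probe sets called was 3.14% over both hairpins, 4.27% with Jak2-9 and 1.37% with Jak2-10. TGM2, the tissue transglutaminase, whose family includes EPB42 as a member without enzyme activity, had the only call over both hairpins, at 1 of its 4 probe sets. TGM2 211003_x_at read 7.94, 8.13 and 8.14 with GFP and 8.21, 7.87 and 7.996 with Luc. It read 8.84, 8.28 and 8.63 with Jak2-9 and 8.31, 8.37 and 8.33 with Jak2-10. Both hairpin groups lay above all control arrays, a separation (above or below) that 3.16% of all probe sets showed. TGM2 211003_x_at rose by 0.41 ± 0.09 on the log2 scale over both hairpins (SE, limma adjusted p = 0.0274). The other TGM2 probe sets gave 0.35, 0.18 and -0.06 (limma adjusted p = 0.059, 0.448 and 0.814). The call at 211003_x_at was lost in 10 of 25 alternatives, among them leaving out GFP replicate 1 or 2, Luc replicate 2 or 3, or any Jak2-10 array. With Jak2-9 it rose by 0.54 (limma adjusted p = 0.0189, or 0.0786 without Jak2-9 replicate 1), and TGM2 211573_x_at by 0.50 (limma adjusted p = 0.0236).

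With Jak2-10 0 of the 47 probe sets passed. The lowest p-values were at ANK3 209442_x_at, 0.32, and TGM1, 0.28 (limma adjusted p = 0.397 and 0.418). ANK3 encodes an ankyrin of nerve and epithelium, and TGM1 the transglutaminase of skin. Jak2-10 minus Jak2-9 also gave 0 calls, with SLC4A7 207604_s_at at 0.36 and TGM2 211573_x_at at -0.30 (limma adjusted p = 0.572 for both). SLC4A7 encodes a bicarbonate transporter, and its other probe sets gave 0.22, 0.04 and -0.07. In Luc minus GFP, which gave 0 calls too, the lowest p-values were at TGM1, 0.17, and TGM2 211573_x_at, -0.19 (limma adjusted p = 1 for both).

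Erythroid transcription factors, some of which are known to switch on membrane genes, were measured for 13 of 16 genes by 34 probe sets. Over both hairpins 2 of the 34 rose past the threshold and 0 fell, where 3.14% of all probe sets were called. The median was 0.07, with 23 of 34 above 0, against 0.03 and 60.4% for all probe sets. GFI1B, a repressor needed for red cell and platelet lineages, rose by 0.29 ± 0.07 (SE, limma adjusted p = 0.0359). It read 9.34, 9.60 and 9.40 with GFP, 9.32, 9.47 and 9.48 with Luc, 9.82, 9.92 and 9.78 with Jak2-9, and 9.59, 9.66 and 9.55 with Jak2-10. Every Jak2-9 array lay above every control array, a position (above or below) that 12.2% of all probe sets took. The Jak2-10 arrays overlapped GFP. The GFI1B call was lost in 12 of 25 alternatives, among them leaving out any Luc array, GFP replicate 1 or 3, Jak2-10 replicate 1 or 2, or Jak2-9 replicate 2. With Jak2-9 GFI1B rose by 0.41 (limma adjusted p = 0.0148).

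The other riser was 1 of the 12 probe sets of TCF3, which encodes E proteins that pair with TAL1. TCF3 209151_x_at rose by 0.52 over both hairpins (limma adjusted p = 0.0162) and by 0.62 with Jak2-10 (limma adjusted p = 0.0369), from 4.98 to 5.45 on control arrays to 5.69 to 5.93 with Jak2-10. The call over both hairpins was lost in 7 of 24 alternatives, among them leaving out GFP replicate 1 or 3, Luc replicate 2 or Jak2-10 replicate 1. The call with Jak2-10 was lost in 12 of 23, among them any Jak2-10 array, GFP replicate 1 or 3, and Luc replicate 1 or 2. Its level is inside the range of the monocyte and granulocyte markers. Jak2-10 minus Jak2-9 gave 0 calls, and the lowest p-values were at GFI1B, -0.24, and KLF1, the factor that binds CACCC, at -0.31 (limma adjusted p = 0.572 for both). Luc minus GFP gave 0 calls, with FOXO3 217399_s_at at -0.31 and TCF3 209152_s_at at -0.20 (limma adjusted p = 1 for both). FOXO3 encodes a forkhead factor, and its other probe sets gave 0.06 and -0.02.

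**Figure D4:**
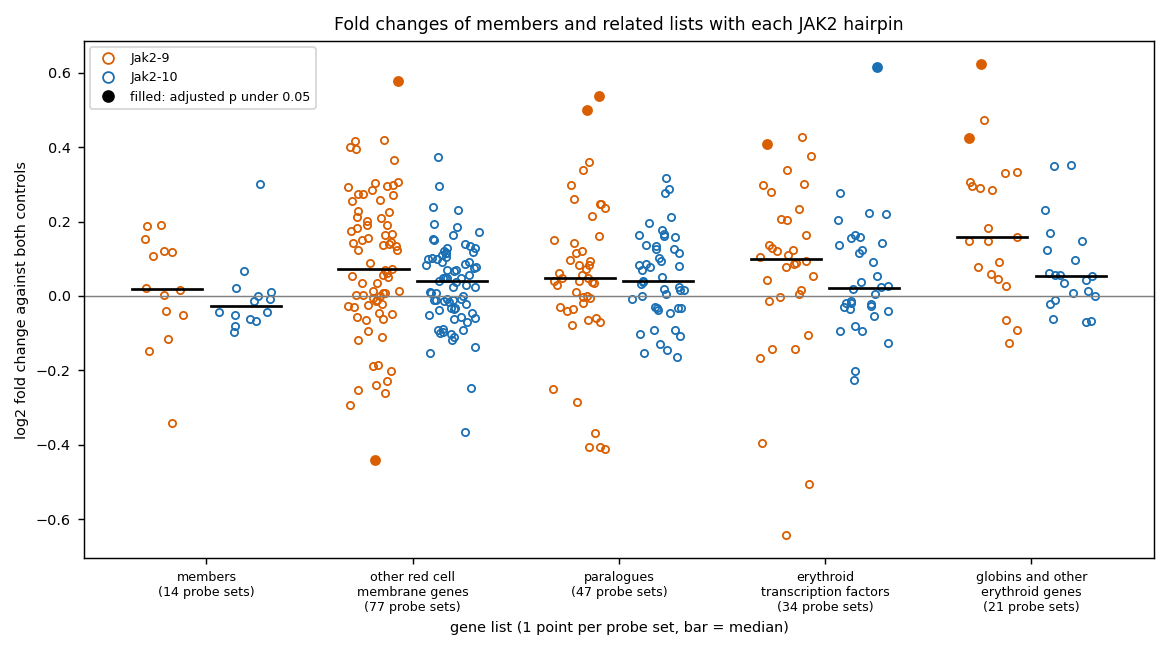
Log2 fold change of every probe set against both controls with Jak2-9 (orange) and Jak2-10 (blue), for the 14 probe sets of the red cell membrane and skeleton genes (members) and 4 related lists; filled points have a limma adjusted p under 0.05 and bars are medians. The 14 have no filled point and medians of 0.02 and -0.03, and the other lists have between 1 and 2 filled points with Jak2-9 and at most 1 with Jak2-10.

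For each gene followed, the 2 genes with the most similar pattern across the arrays are given as a description. Over 11939 genes, each at its brightest probe set, the pattern most like SPTB 208416_s_at over the 12 arrays was that of RRP12, with Pearson r = 0.98, followed by VPS33B at 0.97, and without Jak2-9 replicate 1 the values were 0.94 and 0.92 over 11 arrays. For EPB42 they were TTLL12 at 0.97 and TBL3 at 0.96, or 0.87 and 0.86 without that array. SLC4A1 was most like XAB2 at 0.97 and DLEC1 at 0.95, or 0.76 and 0.62. EPB41 214530_x_at was most like FKBP5 at 0.97 and FAM168B at 0.96, or 0.78 and 0.72. These 4 genes are those whose brightest probe set had Jak2-9 replicate 1 as its extreme array, and their likeness was lower without it.

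For ANK1 and RHAG the likeness was as high without that array. ANK1 205390_s_at was most like KLF6, with Pearson r = 0.93, and PEBP1, with 0.89, and without Jak2-9 replicate 1 the values were 0.93 and 0.89. RHAG 206145_at was most like RPS13 at 0.92 and DDIT3 at 0.91, with 0.92 and 0.91 without that array. These are the highest of many correlations over 12 arrays of 4 constructs, and they are given as a description only.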

How the data were processed

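Total RNA from HEL cells (20 ng per sample, amplified linearly per the labels' protocols) was measured on 12 one-colour arrays. The authors deposited 1 table of linear intensity per probe set, made by RMA, per the submitters' processing notes (version not given in the sources used here). This method corrects background, equalizes array distributions and combines probes, so changes of dim probe sets are compressed. Log2 values, which the analysis plan had expected in the deposited table, were taken without a pseudocount. Detection calls were not used.

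Of 22930 probe sets, 524 controls were left out. Of the others, 19415 carried 1 symbol in the platform annotation, while 125 with several and 2866 with none were not named. Means of 4 groups were fitted to all 12 arrays at every probe set with limma 3.58.1 in R 4.3.3 (lmFit, eBayes), with Benjamini-Hochberg adjustment over 22406 probe sets and a threshold of 0.05. Checks on simulated data preceded the fit. JAK2 was also compared by an exact permutation test, run in R 4.3.3.

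The genes and lists were chosen with earlier results of these data known. Named are JAK2, every probe set of the genes followed, and, per list and comparison, up to 4 called genes ranked by size of change (where none was called, the 2 of lowest p). For each gene followed, the 2 genes most correlated with its brightest probe set are named; marker genes named are the brightest, the called or the dim ones of their list, chosen after their values were seen. Whether replicate numbers pair the arrays was not settled. Of 18 same-number pairs, 4 correlated over 0.1 (range -0.14 to 0.19). Of 36 other-number pairs, 5 did (range -0.18 to 0.17). The ranges overlap and groups are small, so these correlations cannot exclude that arrays of the same number shared a culture or batch. The number of arrays limits the precision. No gene coordinates are given other than RefSeq promoter windows, since the table names no genome build. Alternatives were replicate block, scaling, dim filter, probe set summary, variance trend, array weights, choice of arrays and controls, a random hairpin block, a pseudocount of 16, a minimum fold of 1.2 and leaving out each array.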

Additional observations from a re-analysis of the deposited data

How the results depend on the processing

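Over 26 alternatives, 12 of which leave out 1 array each, the count of called probe sets among the red cell membrane and skeleton genes was 0 in all 122 recomputed counts, and 0 of 1593 recomputed values passed the threshold (limma). With the replicate block the counts stayed at 0 and JAK2 at 205842_s_at changed by -0.67 (limma adjusted p = 0.00392), and among the other results named only TCF3 with Jak2-10 lost its call. At 205842_s_at JAK2 lost its call over both hairpins under 1 alternative, a minimum fold of 1.2, at -0.67 (limma adjusted p = 0.115). With 1 array left out the change there lay between -0.74 and -0.56. At the dimmer probe set, 205841_at, the JAK2 call over both hairpins was lost in 13 of 24 alternatives. Without Jak2-9 replicate 1 or with array weights, EPB41 214530_x_at, EPB42 and SLC4A1 moved by at least 1 SD between arrays, as did RHAG 206145_at after quantile normalization. Median centring moved no comparison by over 0.04 on the log2 scale. With 3 arrays per group, the standard errors over both hairpins ran from 0.06 to 0.21, which limits the differences that can be resolved, and dim probe sets may be background.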
